A study of Mus musculus with 6 samples.

Results

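The genes described here drive the last part of the cell cycle, from G2 through mitosis to cytokinesis. They were followed in natural killer (NK) cells that carry or lack the Mir15a and Mir16-1 locus. The list holds 40 genes, of which 39 were measured among 19938 genes tested. A gene was counted as measured when a probe set of the array carried its symbol alone. Where several did, the brightest one was used. Ccnb1, the gene of cyclin B1, had no such probe set and was not analysed here.

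NK cells are lymphocytes of innate immunity, able to kill infected cells and tumour cells without prior exposure, and CD27 marks their less mature stages. Here YFP+ NK cells that carried CD27 and NK1.1 and lacked CD3 were sorted from the spleen of C57Bl/6 mice, 8 to 12 weeks old. Affymetrix arrays were run on 3 samples of 15a/16-1FKO cells, hereafter the knockout, and on 3 samples of Ctrl cells. The labels do not name the Cre driver, the source of the YFP or whether animals were pooled. The design text calls the arrays technical replicates, while sex-linked transcripts, given below, differed between arrays of one genotype. Whether the arrays came from separate animals is not stated, so that SDs and p-values here measured the spread between these arrays, of whatever origin.

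Entry into mitosis is driven by CDK1 bound to A-type and B-type cyclins, which CDC25 phosphatases switch on and the WEE1 kinase holds off. The anaphase-promoting complex then destroys the cyclins once the spindle checkpoint is satisfied. Most genes of this programme are repressed together in resting cells by the DREAM complex and activated in G2 by B-MYB (Mybl2), the MuvB core and FOXM1. DREAM and MuvB bind a short promoter element called the CHR (cell cycle genes homology region), often beside CCAAT boxes bound by NF-Y. MicroRNA-15 and microRNA-16 are known for restraining the cell cycle, mainly at G1. In bulk RNA, fewer cycling cells and less RNA per cycling cell cannot be told apart.

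The deleted and the remaining microRNAs are shown because they share the seed through which targets are recognised. The mature sequences are from RefSeq (GRCm38.p6), written 5′ to 3′ with the seed, bases 2 to 8, in capitals. MiR-15a-5p (chr14:61632075-61632096, minus strand) and miR-16-5p (chr14:61631936-61631957, minus strand) lie in the deleted locus. MiR-15b-5p (chr3:69009775-69009796, plus strand) lies in a second locus on chromosome 3. That second locus also encodes miR-16-5p (chr3:69009918-69009939, plus strand) with the same 22 bases.
mmu-miR-15a-5p: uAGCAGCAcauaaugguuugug
mmu-miR-16-5p: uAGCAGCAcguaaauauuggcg
mmu-miR-15b-5p: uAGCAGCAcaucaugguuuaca

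Most promoter windows of the mitosis genes held a CHR match. RefSeq promoter windows (GRCm38.p6, 250 bases before to 50 bases after the annotated start) were at hand for 35 of the 40 genes and for 15614 of the genes tested. The CHR was searched as TTTGAA or TTCGAA on both strands, and 28 of the 35 windows (80.0%) held a match, against 19.0% of the windows of all genes tested. Within 50 bases of the start, a width chosen after the positions were seen, 26 of 35 (74.3%) held one, against 5.0% of all. The CCAAT box (CCAAT, both strands) was in 26 of 35 windows (74.3%), against 41.7% of all. Both elements were in 24 of 35, against 8.78% of all, and in 1 of the 24 promoters a CHR and a CCAAT match shared bases. The core letters bound by MYB proteins (AACNG, both strands) were in 32 of 35 windows (91.4%), against 81.4% of all, and shared bases with a CHR match in 9 promoters. A match is a string of letters, and binding was not measured.

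Stretches of 8 of these promoters, from base -90 to base 20 around the annotated start, are shown because they carry the CHR near the start in genes whose levels are described below. Capitals mark CHR and CCAAT matches. The stretches lie at chr9:70421535-70421644 (Ccnb2, minus strand), chr10:69352893-69353002 (Cdk1, minus), chr2:131186858-131186967 (Cdc25b, plus) and chr4:118437324-118437433 (Cdc20, minus). The others lie at chr11:99024170-99024279 (Top2a, minus), chr5:45669835-45669944 (Ncapg, plus), chr19:37376292-37376401 (Kif11, plus) and chr2:129297193-129297302 (Ckap2l, minus).
Ccnb2: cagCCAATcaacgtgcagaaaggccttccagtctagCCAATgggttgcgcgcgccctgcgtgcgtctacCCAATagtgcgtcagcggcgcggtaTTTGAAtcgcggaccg
Cdk1: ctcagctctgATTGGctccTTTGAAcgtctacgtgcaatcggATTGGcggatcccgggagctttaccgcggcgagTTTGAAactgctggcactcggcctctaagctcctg
Cdc25b: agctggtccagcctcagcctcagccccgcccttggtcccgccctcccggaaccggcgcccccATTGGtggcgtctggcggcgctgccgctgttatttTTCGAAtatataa
Cdc20: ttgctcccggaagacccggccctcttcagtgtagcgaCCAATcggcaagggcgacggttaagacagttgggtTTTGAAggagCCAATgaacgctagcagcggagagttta
Top2a: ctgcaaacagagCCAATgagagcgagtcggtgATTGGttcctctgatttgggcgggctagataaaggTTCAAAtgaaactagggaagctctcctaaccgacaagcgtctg
Ncapg: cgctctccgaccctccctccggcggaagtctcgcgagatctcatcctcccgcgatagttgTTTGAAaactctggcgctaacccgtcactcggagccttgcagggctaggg
Kif11: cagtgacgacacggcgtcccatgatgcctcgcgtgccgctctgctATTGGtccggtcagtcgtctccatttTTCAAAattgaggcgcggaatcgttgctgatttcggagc
Ckap2l: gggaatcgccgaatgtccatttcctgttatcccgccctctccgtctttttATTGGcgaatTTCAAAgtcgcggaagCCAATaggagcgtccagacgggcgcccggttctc

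In the printed stretches Cdc20 carries its CHR between a pair of CCAAT boxes and Ccnb2 carries it downstream of 3 of them. The CHR of Top2a, Kif11 and Ckap2l reads on the opposite strand (TTCAAA). Promoter windows of Ccnb1, Melk, Cenpe, Nuf2, Birc5, Ncaph and Nusap1 held no CHR match, which says only that these letters were not in the window. Ccna2, Cdc25c, Aurkb, Kif20a and Tpx2 had no entry in the promoter table. Among the other mitosis genes listed from the same pathway 34 of 50 promoters (68.0%) held a CHR match, against 5 of 29 (17.2%) for genes of DNA replication. Among inhibitors of CDK1 and of mitotic entry it was 0 of 11.

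**Figure D1:**
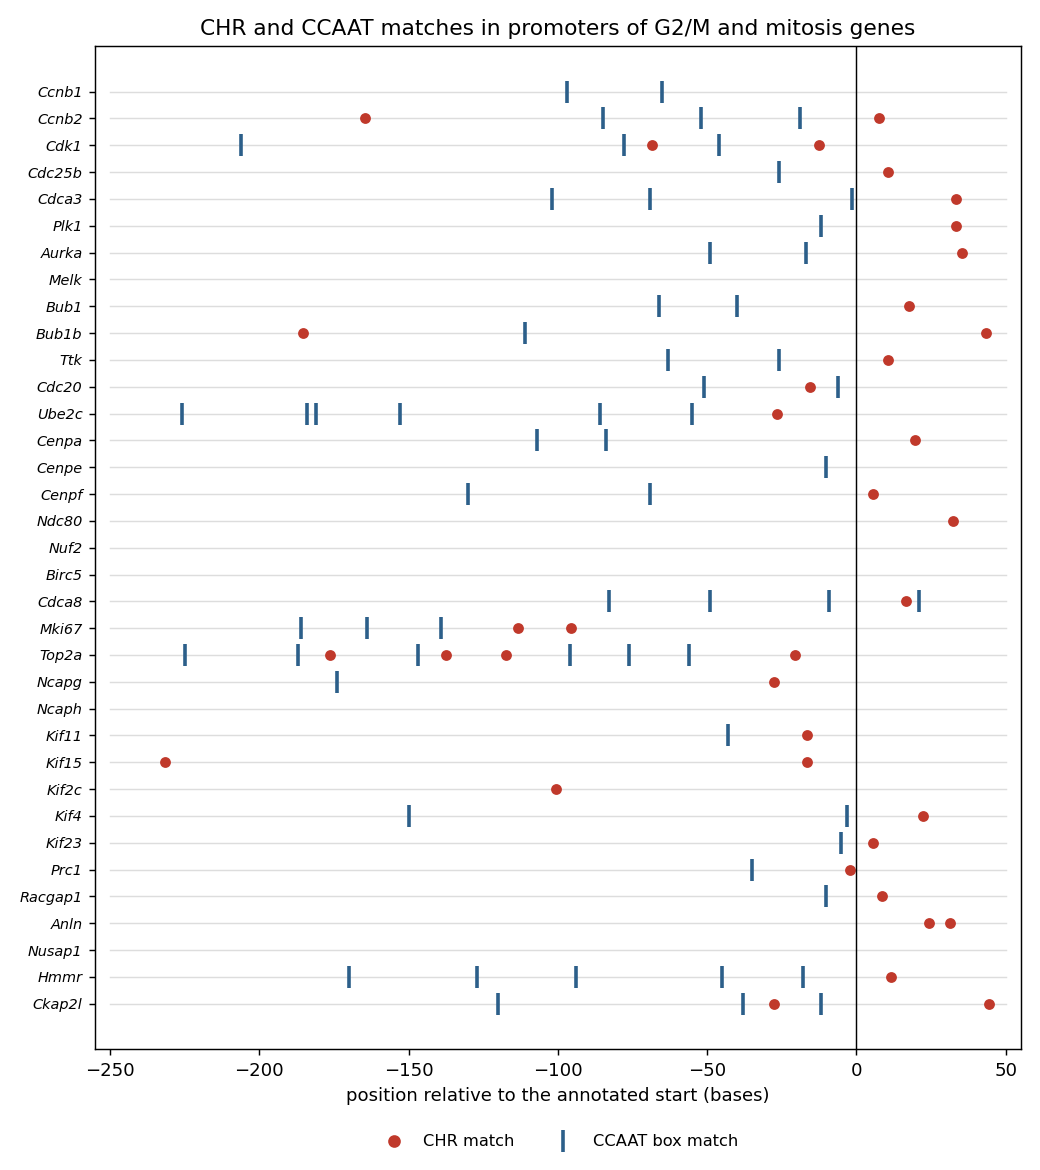
Positions of CHR matches (red circles) and CCAAT box matches (blue bars) in the 35 promoter windows, in bases relative to the annotated start (black line). Each row is 1 gene and 1 promoter, and 26 of the 35 genes have a CHR match within 50 bases of the start.

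Of the deleted microRNA genes, Mir15a passed the threshold and Mir16-1 did not. The Mir15a probe set read 4.37, 3.53 and 3.43 on the knockout arrays (replicates 1, 2 and 3), against 7.14, 6.02 and 6.69 on the Ctrl arrays, all as log2 expression. All 3 knockout arrays lay below all 3 Ctrl arrays (limma log2 difference -2.84, SE 0.31, adjusted p = 0.0296). The Mir16-1 probe set read 2.61, 2.68 and 3.00 on the knockout arrays, against 3.19, 3.20 and 3.77 on the Ctrl arrays. It was also lower on every knockout array, but lay near background and did not pass (limma log2 difference -0.63, SE 0.19, adjusted p = 0.999). None of the 39 mitosis genes lies on chromosome 14, which carries this locus. Xist and 3 Y-linked transcripts differed between arrays of one genotype, with Xist minus the mean of the Y-linked transcripts at 0.66 to 4.03 on the knockout arrays and -2.86 to 6.72 on the Ctrl arrays. Ctrl replicate 1 read 9.65 for Xist and 2.33 for the Y-linked Eif2s3y, while Ctrl replicate 2 read 3.89 for Xist and 7.95 for Eif2s3y. Repeat arrays of 1 RNA sample would share these levels, so that the spread between arrays cannot be taken as technical error alone. All 14 NK markers lay above 4.13, the level under which 95% of 1027 olfactory receptor genes lay, while 6 of 9 B cell and 5 of 9 T cell markers did not. The T cell markers above it were Cd3e, Cd3d, Cd3g and Lat (means 6.34, 7.33, 6.84 and 7.86). Also above it were 4 of 10 macrophage, monocyte and dendritic cell markers, 6 of 8 neutrophil markers and 3 of 5 erythroid markers. The purity of the sort was not tested. Knockout replicate 2 stood apart from the other knockout arrays in many of the mitosis genes, and for several of them the difference is given with and without it. The olfactory receptor level is used below to describe background, and 26 of the 39 mitosis genes had a mean above it.

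None of the 39 mitosis genes passed the threshold between knockout and Ctrl, and the list was centred near no difference. Genotypes were compared with limma on the log2 values, with Benjamini-Hochberg adjustment over all 19938 genes and a threshold of 0.05. Over all genes 4 passed (0.0201%), and each of the 39 members had an adjusted p of 0.999. Of the members, 19 lay above 0 and 20 below it, and their median difference was -0.02, beside -0.01 over all genes. Differences lay between -0.75 for Ccna2 and 0.41 for Nuf2. An unadjusted p under 0.05 was reached by 2 of 39, Cdca3 and Bub1b, beside 3.47% of all genes. All 3 knockout arrays lay above all 3 Ctrl arrays for 2 members, Cdc25b and Ckap2l, beside 3.68% of all genes. They lay below for 3 members, Ccna2, Cdca3 and Bub1b, beside 4.65% of all genes.

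The intervals bound how large a difference the arrays leave room for. The 95% interval lay within 1 log2 unit of 0 for 35 of the 39 genes and within 0.5 for 16. Of all 19938 genes, 19485 lay within 1 and 10443 within 0.5, both larger shares than among the members. The 4 members with limits beyond 1 were Ccna2, Cdca3, Nuf2 and Kif4. Standard errors ran from 0.13 to 0.35 with a median of 0.18, against a median of 0.16 over all genes. For single genes an exact permutation test of 3 against 3 arrays cannot go below p = 0.1, two-sided.

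**Figure D2:**
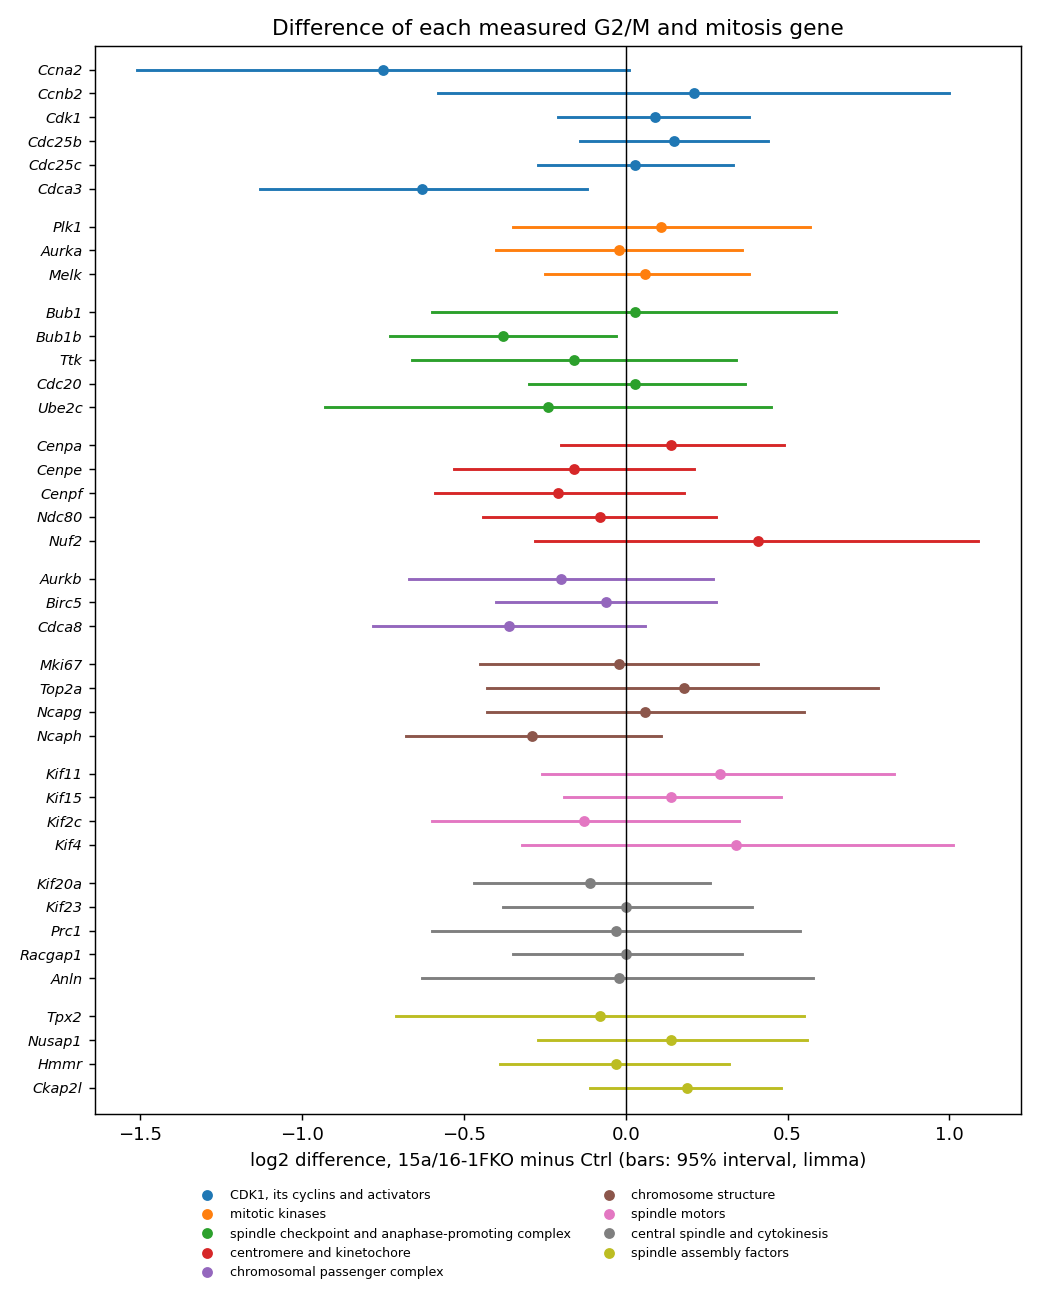
Log2 difference of each of the 39 measured genes, 15a/16-1FKO minus Ctrl, with its 95% limma interval, coloured and grouped by role. Points lie on both sides of 0 in most roles, and the interval leaves out 0 for Cdca3 and Bub1b.

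CDK1, its cyclins and its activators held both the lowest and some of the steadiest genes. Ccna2 encodes cyclin A2, which binds CDK2 in S phase and CDK1 in G2. It read 6.19, 4.99 and 6.17 on the knockout arrays, against 6.29, 6.21 and 7.10 on the Ctrl arrays. The groups did not overlap, although knockout replicates 1 and 3 lay within 0.1 of the nearest Ctrl array while replicate 2 was far below and Ctrl replicate 3 far above. The mean was 5.78 ± 0.68 in the knockout and 6.53 ± 0.50 in Ctrl (SD, n = 3 arrays each), a level 1.68-fold higher in Ctrl (limma, SE 0.34 on the log2 scale, adjusted p = 0.999). The difference was -0.35 without knockout replicate 2 and -0.46 without Ctrl replicate 3.

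Cdca3 encodes a protein that promotes mitotic entry through degradation of the CDK1 inhibitor WEE1. It read 5.25, 4.79 and 5.22 on the knockout arrays, against 5.32, 5.66 and 6.16 on the Ctrl arrays. All knockout arrays lay below all Ctrl arrays, the closest being knockout replicate 1 and Ctrl replicate 1. Cdca3 had the smallest p among the members, with a difference of -0.63 (95% interval -1.13 to -0.12, unadjusted p = 0.0196 by limma, adjusted p = 0.999). Without Ctrl replicate 3 the difference was -0.40 and without knockout replicate 2 it was -0.48.

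Ccnb2 encodes cyclin B2, a partner of CDK1, and had the largest spread within a genotype of the 39 genes. It read 6.59, 5.66 and 7.01 on the knockout arrays, against 5.59, 6.63 and 6.40 on the Ctrl arrays. The groups overlapped, with 1 low array in each genotype, and the difference was 0.21 (95% interval -0.58 to 1.00).

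Cdk1, the kinase itself, read 4.89, 4.91 and 5.06 on the knockout arrays, against 4.86, 4.85 and 4.90 on the Ctrl arrays. Its values were tight and overlapped between genotypes, with a difference of 0.09 (95% interval -0.21 to 0.38). Cdc25b, a phosphatase that activates CDK1 at the start of mitosis, read 6.09, 6.10 and 6.19 on the knockout arrays, against 5.95, 5.94 and 6.04 on the Ctrl arrays. Every knockout array was higher than every Ctrl array, but the difference was small, at 0.15 (SE 0.13), which limma places within the error it shares between genes (adjusted p = 0.999). Cdc25c, its relative, read 2.94, 2.89 and 2.79 on the knockout arrays, against 2.75, 2.95 and 2.84 on the Ctrl arrays, under the olfactory receptor level on all 6.

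**Figure D3:**
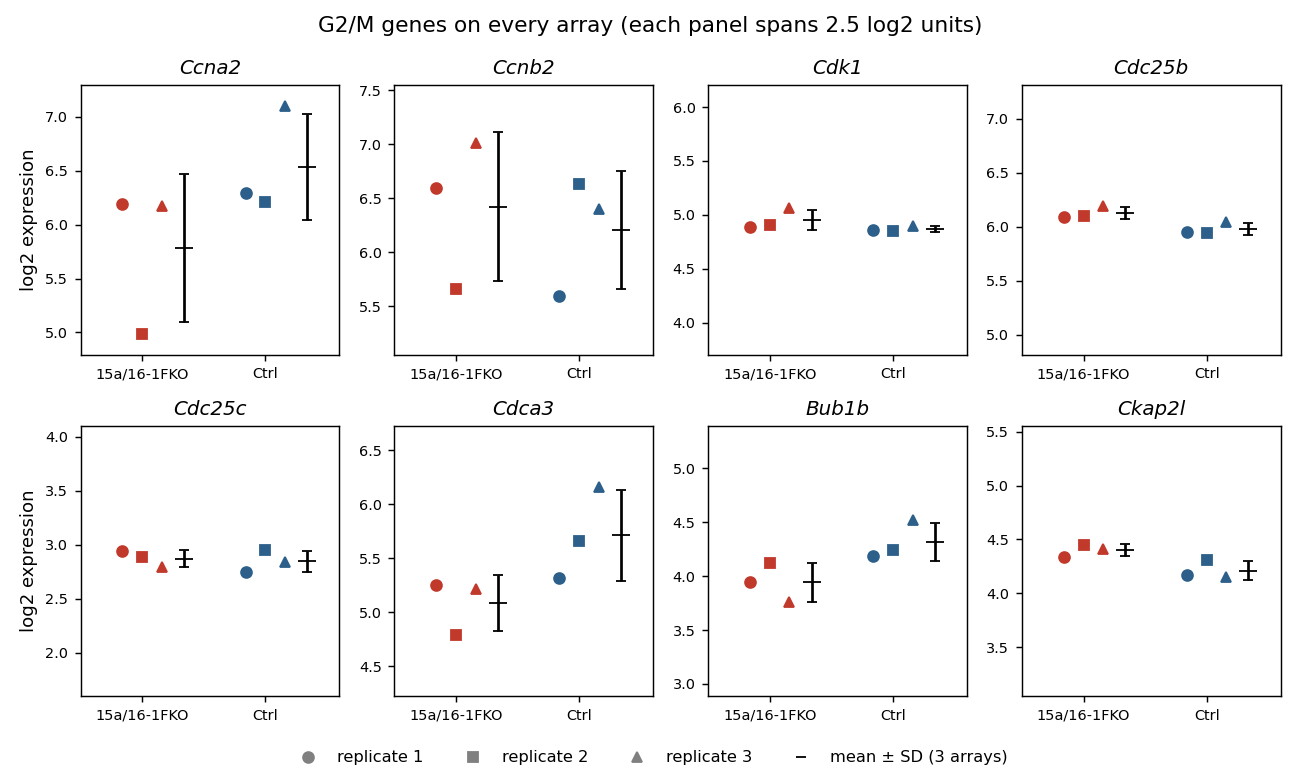
Log2 expression of 8 genes on every array, 15a/16-1FKO (red) left of Ctrl (blue), with symbols for replicate numbers and black bars for mean ± SD (n = 3 arrays each). Every panel spans the same range. Knockout replicate 2 is the lowest knockout array of Ccna2, Ccnb2 and Cdca3, while Cdk1, Cdc25b, Cdc25c and Ckap2l vary little.

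Among mitotic kinases the differences were small. Plk1, which acts at centrosomes, kinetochores and in cytokinesis, read 4.81, 4.26 and 4.80 on the knockout arrays, against 4.20, 4.81 and 4.52 on the Ctrl arrays. One array of each genotype was low, and the difference was 0.11 (SE 0.20). Aurka, which matures centrosomes, differed by -0.02 (SE 0.17), and the kinase Melk by 0.06 (SE 0.14). Melk lay under the olfactory receptor level.

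In the spindle checkpoint and the anaphase-promoting complex Bub1b had the lower values in the knockout. It encodes BUBR1, which holds back the complex until chromosomes are attached. It read 3.95, 4.12 and 3.76 on the knockout arrays, against 4.19, 4.24 and 4.52 on the Ctrl arrays. The groups did not overlap, with a difference of -0.38 (95% interval -0.73 to -0.03, unadjusted p = 0.0379 by limma, adjusted p = 0.999), and the knockout mean of 3.94 lay under the olfactory receptor level. The checkpoint kinase Bub1 differed by 0.03 (SE 0.28) and the checkpoint kinase Ttk by -0.16 (SE 0.22), both near background. Cdc20, the activator of the complex, differed by 0.03 (SE 0.15) and its ubiquitin-conjugating enzyme Ube2c by -0.24 (SE 0.31). Ube2c read 4.55, 4.93 and 5.43 on the knockout arrays, against 4.51, 5.48 and 5.63 on the Ctrl arrays, so that each genotype spanned most of the range of the gene. With 1 array left out its difference ran from -0.59 (without Ctrl replicate 1) to -0.03 (without knockout replicate 1 or Ctrl replicate 3).

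Centromere and kinetochore genes had differences of both signs. Cenpa, the histone variant that marks centromeres, averaged 6.03 ± 0.01 in the knockout and 5.89 ± 0.24 in Ctrl (SD, n = 3 arrays each). Its knockout arrays agreed almost to the second decimal while Ctrl replicate 3 was the low array at 5.62. Ndc80 and Nuf2 encode partners in the complex that holds microtubules at the kinetochore. Ndc80 differed by -0.08 (SE 0.16) and Nuf2, which was near background, by 0.41 (SE 0.31). Nuf2 read 3.72, 3.24 and 4.36 on the knockout arrays, against 3.01, 3.94 and 3.14 on the Ctrl arrays, and the groups overlapped widely. The difference of Nuf2 was 0.67 without knockout replicate 2, 0.69 without Ctrl replicate 2 and 0.11 without knockout replicate 3. The kinetochore motor Cenpe differed by -0.16 (SE 0.17) and Cenpf by -0.21 (SE 0.17), both under the olfactory receptor level.

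The 3 genes of the chromosomal passenger complex, which corrects faulty attachments, all had negative differences. Cdca8 (borealin) read 4.56, 4.21 and 4.68 on the knockout arrays, against 4.55, 5.10 and 4.90 on the Ctrl arrays. The groups overlapped through Ctrl replicate 1, and the difference was -0.36 (95% interval -0.78 to 0.06). The kinase Aurkb differed by -0.20 (SE 0.21; from -0.39 without knockout replicate 3 to -0.04 without Ctrl replicate 2) and Birc5 (survivin) by -0.06 (SE 0.15). Incenp, the scaffold of this complex and a member of the other mitosis genes, read 5.73, 5.12 and 5.73 on the knockout arrays, against 6.00, 5.89 and 5.79 on the Ctrl arrays. Its difference was -0.37 (SE 0.18, adjusted p = 0.999), and it was named for its place in this complex after its values were seen. For Incenp, knockout replicates 1 and 3 lay just below Ctrl replicate 3, while knockout replicate 2 was far below. Incenp was the 1 of 61 other mitosis genes whose knockout arrays all lay below all Ctrl arrays, beside 4.65% of all genes. Pttg1 (securin), at 0.11 (SE 0.13), was the 1 whose knockout arrays all lay above, beside 3.68% of all genes.

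Among genes of chromosome structure, knockout replicate 2 was set apart from the other knockout arrays. Mki67 encodes the proliferation marker Ki-67, which coats mitotic chromosomes. It read 6.96, 6.33 and 6.94 on the knockout arrays, against 6.93, 6.63 and 6.73 on the Ctrl arrays. Top2a, the topoisomerase that untangles sister chromatids, read 6.82, 5.83 and 6.81 on the knockout arrays, against 6.04, 6.26 and 6.64 on the Ctrl arrays. In both genes knockout replicate 2 was the lowest of the 6 arrays and the other knockout arrays were the highest. Differences were -0.02 (95% interval -0.45 to 0.41) for Mki67 and 0.18 (95% interval -0.43 to 0.78) for Top2a. The condensin subunit Ncapg read 4.67, 3.80 and 4.46 on the knockout arrays, against 4.34, 4.05 and 4.35 on the Ctrl arrays. Knockout replicate 2 was again the lowest of the 6 arrays, and the difference was 0.06 (SE 0.22). Its partner Ncaph differed by -0.29 (SE 0.18), with the lowest knockout value on replicate 3.

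Among spindle motors, 3 of 4 genes had positive differences. Kif11, the motor that pushes the spindle poles apart, read 5.74, 5.05 and 5.76 on the knockout arrays, against 4.88, 5.16 and 5.65 on the Ctrl arrays. Kif4, a chromosome-bound motor, read 4.19, 2.97 and 4.23 on the knockout arrays, against 3.45, 3.33 and 3.58 on the Ctrl arrays. Knockout replicates 1 and 3 were above every Ctrl array in both genes and replicate 2 was among the low arrays. The differences were 0.29 (SE 0.24) for Kif11 and 0.34 (SE 0.30) for Kif4. Without knockout replicate 2 they were 0.52 (SE 0.23) for Kif11 and 0.76 (SE 0.16) for Kif4, with limma adjusted p-values of 1.0. Kif4 had a mean under the olfactory receptor level. Kif15 differed by 0.14 (SE 0.15) and the microtubule depolymerase Kif2c, also under that level, by -0.13 (SE 0.21).

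Genes of the central spindle and cytokinesis were centred on 0. Kif23 and Racgap1, which together form centralspindlin, each differed by 0.00 (SE 0.17 and 0.16). The bundling protein Prc1 differed by -0.03 (SE 0.25), the motor Kif20a by -0.11 (SE 0.16) and the cleavage furrow protein Anln by -0.02 (SE 0.27). Anln read 4.25, 2.98 and 3.54 on the knockout arrays, against 3.57, 3.57 and 3.69 on the Ctrl arrays. Its knockout arrays thus lay on both sides of 3 tight Ctrl arrays. Anln and Kif20a had means under the olfactory receptor level.

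The spindle assembly factors were Tpx2, which activates Aurora A, the microtubule binders Nusap1 and Hmmr, and Ckap2l. Ckap2l, needed for ordered spindle poles, read 4.34, 4.45 and 4.41 on the knockout arrays, against 4.17, 4.31 and 4.15 on the Ctrl arrays. Every knockout array was higher than every Ctrl array, with a difference of 0.19 (95% interval -0.11 to 0.48, adjusted p = 0.999 by limma). Tpx2 differed by -0.08 (SE 0.28), Nusap1 by 0.14 (SE 0.18) and Hmmr by -0.03 (SE 0.16). Tpx2 and Hmmr had means under the olfactory receptor level.

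The median spread between arrays of one genotype was larger than the median size of the difference between genotypes, here and over all genes. Some members had a difference larger than their own spread. Among them Ccna2, Cdca3 and Bub1b were lower in the knockout, and Cdc25b and Ckap2l were higher. As a measure of spread, the within-genotype SD had a median of 0.26 over the 39 genes. It was 0.20 over all genes and 0.22 over genes above the olfactory receptor level. Among the 39 genes this SD ran from 0.06 to 0.62, and 26 of them lay above the median of all genes. The median size of the difference between genotypes, without its sign, was 0.14 for the mitosis genes and 0.11 for all genes.

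This spread had a direction, since knockout replicate 2 was low in many of the genes together. It was the lowest knockout array for 23 of the 39 genes (59.0%), beside 29.2% of all genes. Replicates 1 and 3 were each the lowest for 8. Knockout replicate 2 lay more than 0.5 below both other knockout arrays for 9 of the 39 genes (23.1%), beside 1.77% of all genes. These 9 were Ccna2, Ccnb2, Plk1, Mki67, Top2a, Ncapg, Kif11, Kif4 and Anln. No member lay that far below both others on knockout replicates 1 or 3. In Ctrl, replicate 1 was the lowest for 19 of the 39 genes (48.7%), beside 28.0% of all genes, and 3 genes lay more than 0.5 below both other Ctrl arrays there. The mean level of the 39 genes was 4.79, 4.48 and 4.78 on the knockout arrays, against 4.60, 4.73 and 4.82 on the Ctrl arrays. These are descriptions made after the values were seen, and they have no test.

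Without knockout replicate 2 the median difference of the members was 0.02, with 21 of 39 above 0, and again 0 passed the threshold by limma. An unadjusted p under 0.05 was then reached by 4 of 39, beside 3.4% of all genes. Kif4, Top2a and Kif11 were higher in the knockout, and Bub1b was lower. Top2a then differed by 0.50 (SE 0.20) and Ccnb2 by 0.59 (SE 0.30). Plk1 differed by 0.29, Mki67 by 0.19, Ncapg by 0.32, Anln by 0.28 and Cdca8 by -0.22. The median of the members thus lay close to 0 with and without this array. The number of members with an unadjusted p under 0.05 was again 4 of 39 without Ctrl replicate 1, beside 3.22% of all genes, and 0 of 39 by limma without Ctrl replicate 3, beside 2.82% of all genes.

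Knockout replicate 2 was also the lowest knockout array for 34 of 61 other mitosis genes, which are not members (55.7%). The gap of more than 0.5 below both other knockout arrays was rarer there, at 4 of 61 (6.56%). Such a gap was found for 3 of 61 on knockout replicate 3 and, within Ctrl, for 5 of 61 on replicate 1. Among 35 genes of DNA replication it was the lowest knockout array for 16 (45.7%) and the highest for 15 (42.9%), and their mean level was 5.43, 5.42 and 5.48 on the knockout arrays. Over all genes these shares were 29.2% and 35.5%. The replication genes were thus split on knockout replicate 2, and their mean level there did not stand apart. The mean level of the 14 NK markers was 9.99, 9.91 and 9.71 on the knockout arrays, against 9.87, 9.85 and 9.78 on the Ctrl arrays, so that knockout replicate 2 did not stand apart in them. The mean level of 8 neutrophil markers, 6 of them above the olfactory receptor level, was 5.28, 4.57 and 4.87 on the knockout arrays, against 4.69, 4.92 and 4.51 on the Ctrl arrays. Knockout replicate 2 thus also had the lowest mean of the knockout arrays in neutrophil markers. It was the lowest knockout array for 5 of the 8 and the highest for 1. The part of these markers in the result was not tested. Knockout replicate 2 was lowest for 17 of the 28 measured genes with a CHR match and for 3 of the 6 with a promoter window and no match.

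**Figure D4:**
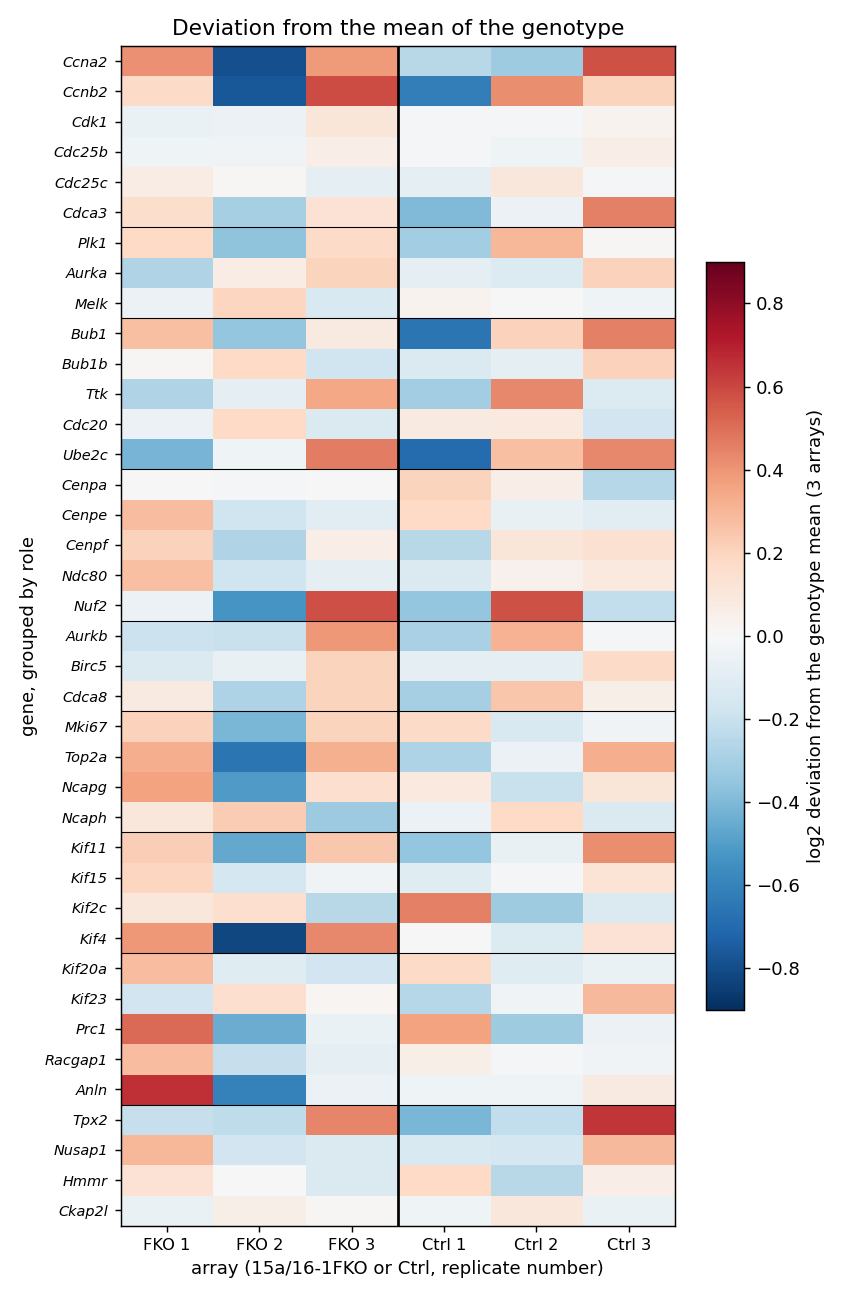
Deviation of each of the 39 genes on each array from the mean of its genotype (log2), 15a/16-1FKO arrays left of Ctrl arrays, with genes grouped by role and the color running from blue (low) to red (high). The column of knockout replicate 2 is mostly blue, with 23 of 39 genes at their lowest knockout value, and Ctrl replicate 1 holds 19 of the lowest Ctrl values.

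**Figure D5:**
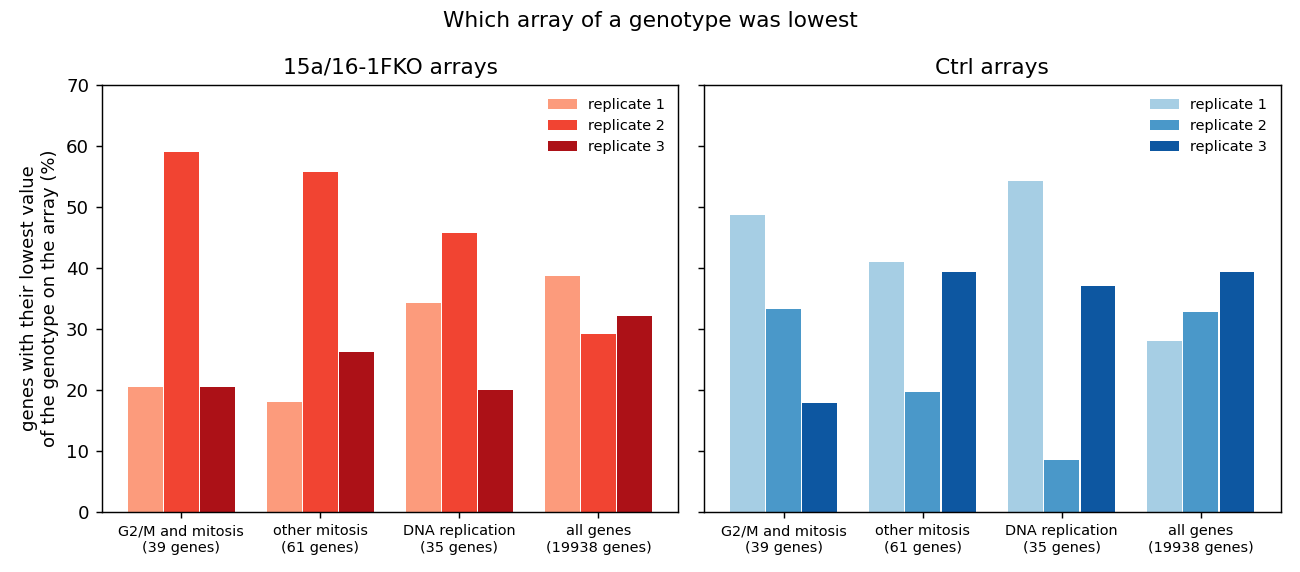
Share of genes that had their lowest value of a genotype on each array, for 4 sets of genes, in 15a/16-1FKO arrays (left panel) and Ctrl arrays (right panel). Knockout replicate 2 holds the lowest value in 59.0% of the G2/M and mitosis genes and 29.2% of all genes.

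Of 61 other mitosis genes 0 passed the threshold by limma, 0 had an unadjusted p under 0.05, and the median difference was -0.02 with values from -0.44 to 0.33. The gene with the smallest p was Cks1b, a CDK-binding subunit, at -0.44 (SE 0.21, adjusted p = 0.999). Of 35 genes of DNA replication 0 passed by limma and the median was -0.03, while 3 (8.57%) had an unadjusted p under 0.05. These were Tk1 (thymidine kinase) at 0.66 (SE 0.27), Rfc3, part of the complex that loads the sliding clamp, at -0.45 (SE 0.18), and Ccne2 (cyclin E2) at -0.45 (SE 0.18). A second, dimmer probe set of Tk1 differed by -0.07.

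The transcription factors that drive or hold back the programme did not pass either. Of 24 genes of the DREAM and MuvB complexes and related factors, 0 passed by limma, 1 had an unadjusted p under 0.05, and the median difference was -0.03. Foxm1 read 4.72, 4.91 and 4.88 on the knockout arrays, against 4.71, 4.94 and 5.02 on the Ctrl arrays, a difference of -0.06 (SE 0.14). Mybl2, which encodes B-MYB, read 4.27, 4.94 and 4.48 on the knockout arrays, against 4.78, 4.67 and 5.06 on the Ctrl arrays, a difference of -0.27 (SE 0.19). Myb, which encodes c-MYB, the factor in the title of the study, read 7.38, 7.32 and 7.28 on the knockout arrays, against 7.20, 7.08 and 7.05 on the Ctrl arrays. Every knockout array was higher, with a difference of 0.22 (SE 0.13, adjusted p = 0.999 by limma). Lin54, the CHR-binding subunit of MuvB, differed by 0.18 (SE 0.22). Knockout replicate 2 was the highest knockout array for Mybl2 and Foxm1, but most of the list did not share this. Of the 24 genes it was the highest knockout array for 4 (16.7%) and the lowest for 10 (41.7%). Over all genes these shares were 35.5% and 29.2%. Among the brightest probe sets, the smallest p of this list was that of Mybl1, encoding A-MYB, which differed by 0.48 (SE 0.18) near background. For Tfdp1, also in this list, the brightest probe set differed by 0.08. A second, dimmer one differed by -0.62 (unadjusted p = 0.0114 and adjusted p = 0.999 by limma over every probe set with 1 symbol).

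Among 14 inhibitors of CDK1 and of mitotic entry 0 passed by limma and 2 had an unadjusted p under 0.05, both lower in the knockout. Gadd45a encodes a stress-induced protein that can hold cells in G2. It read 5.22, 4.77 and 4.95 on the knockout arrays, against 5.56, 5.40 and 5.77 on the Ctrl arrays. All knockout arrays lay below all Ctrl arrays, with a difference of -0.59 (SE 0.17, unadjusted p = 0.0056 and adjusted p = 0.999 by limma). Its relative Gadd45g read 2.98, 3.89 and 2.96 on the knockout arrays, against 3.80, 4.23 and 3.98 on the Ctrl arrays, with overlap through knockout replicate 2 and means near background. Wee1, the kinase that blocks CDK1, differed by 0.04 (SE 0.24). These counts use the brightest probe set of each gene. For Sfn, also in this list, that probe set differed by -0.10. A second, dimmer probe set of Sfn differed by -0.55 (unadjusted p = 0.0037 and adjusted p = 0.999 by limma over every probe set with 1 symbol).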

How the data were processed

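Each of the 6 arrays was one column in the authors' table of deposited log2 values, which lists 35556 probe sets. RMA and Partek 6.6 appear in the submitters' processing notes, with no step assigned to either. RMA adjusts background, applies quantile normalization and summarises probes, and small signals lose contrast in it. No genome build is named in the sources used here. Arrays carry no read depth, and their number limits the precision.

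GEO's platform annotation paired 21789 probe sets with 1 symbol and 1621 with several, and 12146 were unnamed. The brightest probe set represented each of 19938 genes, and 1 member, Top2a, had a second. Genotypes were compared by limma 3.58.1 (R 4.3.3) with lmFit and eBayes, knockout minus Ctrl, with two-sided p-values adjusted by Benjamini-Hochberg over all genes. The fit was tested on simulated data. No filter was applied, and the olfactory receptor level and the gap of 0.5 between arrays were chosen after seeing the data. Members and lists were chosen with earlier results of these data known. All measured members are named. Values on every array were planned for the CDK1 group, for members with an unadjusted p under 0.05 or no overlap and for the largest spread, and others were added after their values were seen. From each other list of the pathway, genes were named from among its 4 with the smallest p-values, with preset regulators. Pttg1 and the probe sets of Sfn and Tfdp1 were added after their values were seen. The alternatives were other scalings, a filter on dim genes, a replicate block, other variance priors, array weights, each array left out, other probe sets and a sex-linked covariate.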

Additional observations from a re-analysis of the deposited data

How the results depend on the processing

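As in the fit reported, 0 of the mitosis genes passed the threshold in the 15 alternatives, with unadjusted p-values under 0.05 for 0 members (without Ctrl replicate 3) to 4 (without knockout replicate 2 or Ctrl replicate 1). The median difference of the members lay between -0.04 and 0.02, and 17 to 24 of 39 had a positive difference. With genes under the median level left out, 23 members remained and 12 were positive. Over all genes 4 passed in the fit reported, 2 with the sex-linked covariate, and 2 to 3 with an array left out. Same-numbered arrays correlated in their deviations with r of 0.048, 0.148 and 0.141, so that the numbers were not taken as pairs. With the replicate block 3 of all genes and 0 members passed, the median was -0.02 and 19 members were positive.

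Members with differences near 0 turned sign. Centring on array medians gave 0.02 for Aurka, 0.02 for Mki67, 0.01 for Prc1, 0.01 for Anln and 0.00 for Hmmr. A second quantile normalization gave -0.03 for Racgap1 and 0.01 for Anln, and array weights gave -0.04 for Bub1 and -0.02 for Racgap1. With an array left out the ranges that crossed 0 were as follows. Anln ranged from -0.36 to 0.28, Aurka from -0.12 to 0.12, Birc5 from -0.16 to 0.02, Bub1 from -0.30 to 0.25, Ccnb2 from -0.10 to 0.59, Cdc20 from -0.06 to 0.10 and Cdc25c from -0.02 to 0.08. Hmmr ranged from -0.16 to 0.06, Kif23 from -0.13 to 0.15, Kif2c from -0.28 to 0.10, Melk from -0.03 to 0.13, Mki67 from -0.13 to 0.19, Ncapg from -0.12 to 0.32 and Ndc80 from -0.22 to 0.01. Nusap1 ranged from -0.01 to 0.29, Plk1 from -0.04 to 0.29, Prc1 from -0.29 to 0.20, Racgap1 from -0.14 to 0.11, Tpx2 from -0.30 to 0.24 and Ttk from -0.34 to 0.05. The cause was not tested. Other members kept their sign but moved by over 1.5 times, among them Nuf2 (0.11 to 0.69), Ube2c (-0.59 to -0.03), Aurkb (-0.39 to -0.04), Kif4 (0.13 to 0.76), Kif11 (0.11 to 0.52), Top2a (0.01 to 0.50) and Ncaph (-0.40 to -0.12). Differences of the 13 members under the olfactory receptor level are limited by signal near background.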
